A study of Mus musculus with 15 samples.

Results

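Anti-Müllerian hormone, the inhibin and activin subunits, their binding protein and their receptors were described in preSertoli cells of the fetal mouse testis. The 10 genes are Amh, Amhr2, Inha, Inhba, Inhbb, Fst, Acvr2a, Acvr2b, Acvr1b and Tgfbr3. They were selected by name, and each matched 1 row among the 27697 gene symbols of the RNA-seq table. The series maps regulatory elements in preSertoli cells and holds 15 mouse samples, of which 3 are RNA-seq. The RNA-seq samples form a single group of E15.5 preSertoli cells from C57BL/6J x CD-1 (F1) fetal testes, with no other tissue, stage or genotype beside it. Per the labels, cells purified by flow cytometry from about 165 embryos were divided into 3 pools with about the same number of cells, called biological replicates, and sequenced with reads of 50 bp. The labels of these libraries do not name the gate, whereas those of the DNase-seq preSertoli libraries name embryos heterozygous for a Sox9-ECFP transgene. The libraries are called 1, 2 and 3 after the columns of the table, which carry only a number.

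PreSertoli cells are the somatic cells that enclose the germ cells in the testis cords. They secrete anti-Müllerian hormone, a member of the TGF-beta family that makes the female ducts of a male embryo regress. The hormone binds AMHR2, its dedicated type II receptor, which pairs with a type I receptor of the BMP class and acts through SMAD1, SMAD5 and SMAD9. Inhibins and activins share their beta subunits: an alpha subunit (Inha) with a beta subunit (Inhba or Inhbb) makes an inhibin, and a pair of beta subunits makes an activin. Activins bind the type II receptors ACVR2A and ACVR2B with the type I receptor ACVR1B and act through SMAD2 and SMAD3. Follistatin (Fst) binds activin and keeps it from its receptors, and betaglycan (Tgfbr3) is a co-receptor that lets inhibin hold the type II receptors. In the fetal mouse testis the activin beta A subunit Inhba is known chiefly as a product of Leydig cells.

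RefSeq start sites (build GRCm38.p6) were matched for 7 of the 10 genes: Amhr2, Inha, Inhba, Inhbb, Acvr2a, Acvr2b and Acvr1b. The 250 bases before the start are shown for Inhbb and Inhba, the alternative beta subunits, which lay far apart in reads, and for Amhr2, whose sequence holds the letters bound by NR5A1, a nuclear receptor of gonadal somatic cells that was itself high here. Capitals mark matches on either strand to a NR5A1 half-site (AAGGTC), to the site of GATA factors (GATA with A or T before it and A or G after it) or to the site of SOX factors (the letters ACAAT, or else the longer form ACAAAG); the cyclic AMP response half-site TGACG was searched as well.
Amhr2, chr15:102445117-102445366, plus strand: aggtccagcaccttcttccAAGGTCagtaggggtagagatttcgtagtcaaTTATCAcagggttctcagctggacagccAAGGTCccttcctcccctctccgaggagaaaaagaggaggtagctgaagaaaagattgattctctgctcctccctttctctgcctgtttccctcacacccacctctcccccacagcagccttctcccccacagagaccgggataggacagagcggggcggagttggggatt
Inhbb, chr1:119422249-119422498, minus strand: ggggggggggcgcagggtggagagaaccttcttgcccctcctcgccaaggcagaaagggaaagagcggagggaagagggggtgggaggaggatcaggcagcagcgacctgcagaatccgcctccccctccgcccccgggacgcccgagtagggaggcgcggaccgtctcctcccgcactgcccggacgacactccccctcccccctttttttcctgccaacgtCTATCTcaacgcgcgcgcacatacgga
Inhba, chr13:16011601-16011850, plus strand: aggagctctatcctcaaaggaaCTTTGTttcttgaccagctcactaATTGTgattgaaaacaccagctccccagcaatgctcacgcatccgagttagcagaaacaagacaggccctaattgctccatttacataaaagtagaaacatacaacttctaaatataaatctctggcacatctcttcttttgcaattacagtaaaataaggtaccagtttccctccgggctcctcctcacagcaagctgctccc
The Amhr2 sequence held 2 NR5A1 half-sites, which begin 231 and 171 bases before the start, and 1 GATA site. Inhbb held 1 GATA site and Inhba held 2 SOX sites. Among the 7 matched windows, that of Amhr2 alone held the NR5A1 half-site, and none held TGACG. Acvr2a and Acvr2b held 1 SOX site each, and Inha and Acvr1b held none of the sites searched. Because Amhr2 is shown for its half-sites, the share of all windows with this site is no test of them. Among all 32851 RefSeq start-site windows of this length, 10.6% held the NR5A1 half-site, 26.5% a GATA site, 38.8% a SOX site and 17.8% TGACG. The share of G and C was 55.2% in the Amhr2 window, 68.0% in that of Inhbb and 43.2% in that of Inhba, against a median of 52.4% over all windows. The Amhr2, Inhba, Inha and Acvr2b windows lie within the span of the RefSeq gene, so each of these genes has another start farther upstream. The bases before that other start were not searched, so sites found or missing in these windows do not describe it. Letters that match are not evidence of binding, and start sites were not tied to the open chromatin of these cells, because no annotation of the build used for the DNase-seq lists (mm9) was at hand.

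Expression was called at 1 CPM (a unit that scales expected counts by the library's total) or more in all 3 libraries. By this rule 9 of the 10 genes were expressed, against 47.1% of all symbols, and the exception was Fst. Libraries 1, 2 and 3 held 47766422, 56007688 and 51725096 expected counts. CPM is not divided by transcript length, and no transcript lengths of the authors' annotation were at hand, so the order of genes, here and in every list below, is an order of reads and not of transcripts. By reads the order was Amh, Inhbb, Inha, Amhr2, Acvr1b, Acvr2a, Acvr2b, Tgfbr3, Inhba and Fst. Of the 9 neighbouring pairs in this order, the libraries overlapped in 1, Acvr2b and Tgfbr3. Errors are SD over the 3 libraries (n = 3) throughout. Because the RNA-seq has 1 group, no difference between groups was tested, and the spread below is that between pools.

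**Figure D1:**
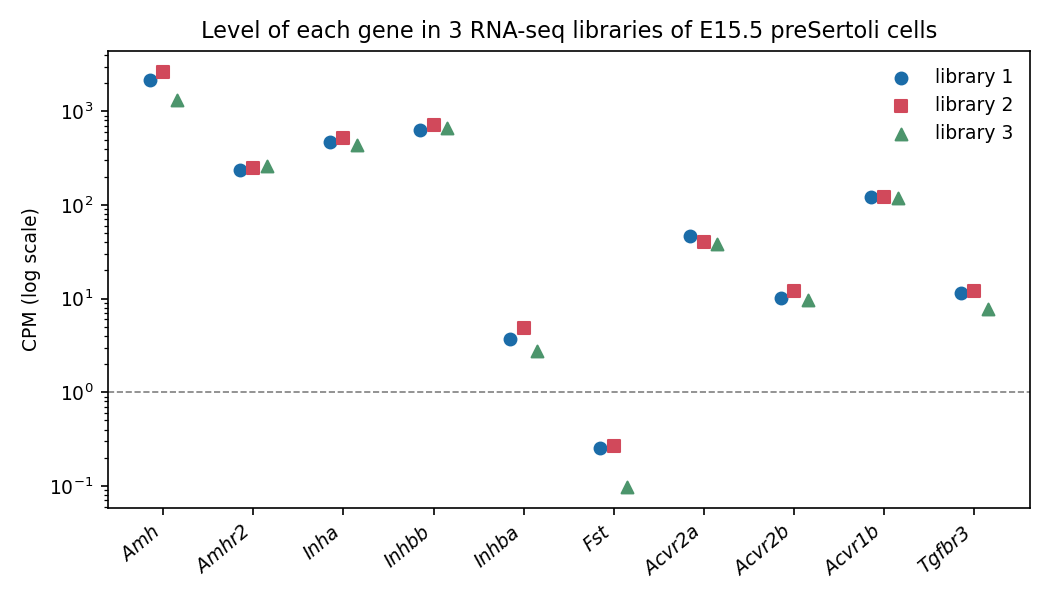
CPM of each gene (log axis) in the 3 libraries of E15.5 preSertoli cells, with 1 point per library and a dashed line at 1 CPM. Amh lies highest, between 1319 and 2660 CPM, and Fst alone lies under the line, between 0.0967 and 0.268 CPM.

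Amh was among the genes with the most reads in preSertoli cells, and the one of the 10 that exceeded 1000 CPM. It stood at 2167 CPM in library 1, 2660 CPM in library 2 and 1319 CPM in library 3, a mean of 2048 ± 678 CPM. Library 2 was the highest and library 3 the lowest, with a ratio of highest to lowest of 2.02. On the deposited scale, squared, where 1 is the 75th percentile of the library, Amh stood at 46.5, 57.1 and 28.4, a mean of 44.0 ± 14.6. Its rank among all symbols was 16 in library 1, 10 in library 2 and 37 in library 3, and 19 by the mean.

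The spread of Amh was wide for a gene of its level. Its coefficient of variation (CV, the SD as a share of the mean) was 33.1%, whereas counting error alone would give 0.307% at 68213 to 148982 reads per library. Among the 2541 symbols at a mean of 100 CPM or more the median CV was 5.60%, and 6 symbols, Amh among them (0.236%), had a CV at least as large. Of the 56 symbols at a mean of 1000 CPM or more, Amh was the single one. The spread came mainly from library 3: without it the CV of Amh was 14.5%, and the mean of libraries 1 and 2 was 2413 CPM.

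**Figure D2:**
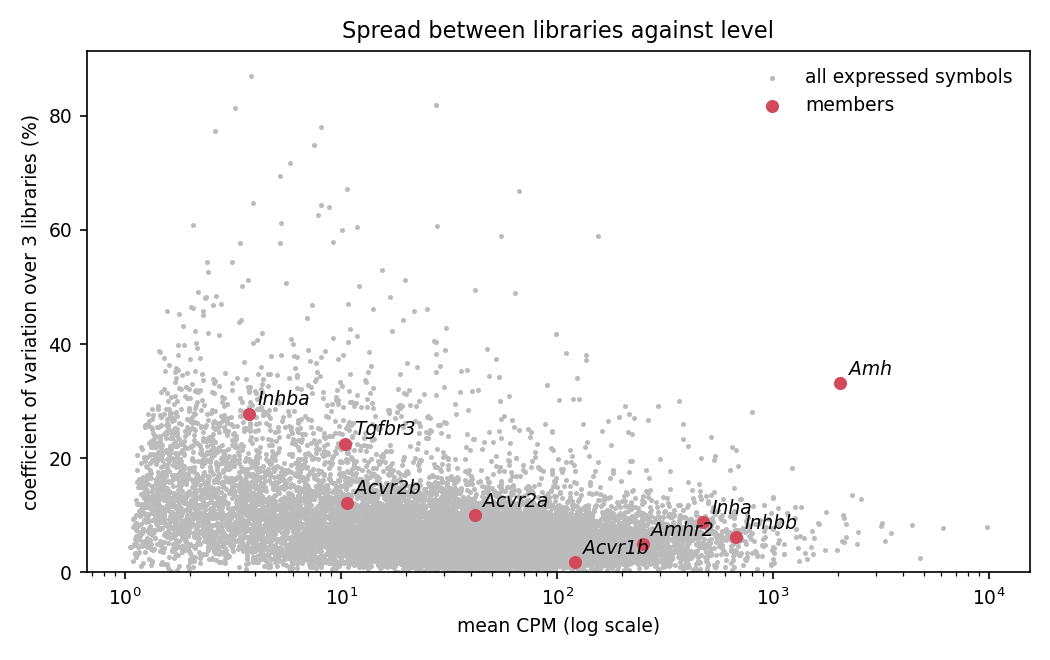
Coefficient of variation over the 3 libraries (%) against mean CPM (log axis) for all 13036 expressed symbols (grey) and the 9 expressed genes of the hormone and receptor set (red). Amh, at 2048 CPM and 33.1%, lies apart from other symbols of high level, while Acvr1b, at 121 CPM, has the lowest CV of the 9, 1.79%.

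Genes whose profile over the 3 libraries lay nearest to that of Amh were listed among the symbols at 100 CPM or more, by the Euclidean distance between log2(CPM + 1) values centred on each gene's mean. In order of distance they were Mesdc1, the WNT ligand Wnt6, Chchd10, 6430527G18Rik, the collagen gene Col1a1, the steroidogenic gene Star, the collagen gene Col3a1 and Tnrc18. Mesdc1 stood at 127, 149 and 78.5 CPM in libraries 1, 2 and 3, at a distance of 0.0728. Wnt6 stood at 386, 468 and 249 CPM, at a distance of 0.0780. Each of the 8 was highest in library 2 and lowest in library 3, as Amh was, which follows from their choice by nearness. Their ratios of highest to lowest ran from 1.73 for Col3a1 to 2.27 for 6430527G18Rik. The farthest were ENSMUSG00000073777, Tpt1, the ubiquitin gene Ubb, the ribosomal protein gene Rpl41 and DQ072386. Ubb stood at 1053, 1147 and 1481 CPM, so that it was highest in library 3, where Amh was lowest. With 3 libraries such a likeness is a description of these pools.

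Marker lists of the cell types that a sorted fetal testis fraction could hold were set beside Amh. Counts of expressed markers, here and in the next paragraph, stand beside 47.1% of all symbols. All 16 Sertoli markers were expressed, and their summed level was 10008, 9728 and 10422 CPM in libraries 1, 2 and 3. Amh amounted to 21.6%, 27.3% and 12.7% of this sum. Without Clu, the secreted chaperone clusterin, which had the most reads of the list, the other 15 summed to 7028, 6659 and 6954 CPM, and Amh amounted to 30.8%, 39.9% and 19.0% of that. Of the 16, 4 (Sox9, Sox8, Dhh and Cyp26b1) were highest in library 2 and lowest in library 3, as Amh was, against 18.9% of all expressed symbols. Markers of fetal Leydig cells, the steroid-producing cells outside the cords, were all expressed, and 6 of 6 were highest in library 2 and lowest in library 3, against the same 18.9%. Their sum was 1695, 2014 and 1228 CPM, with Cyp17a1, an enzyme of androgen synthesis, the highest at 677, 820 and 531 CPM. The 9 interstitial mesenchyme markers were all expressed with sums of 511, 595 and 385 CPM, and 9 of 9 had that order, which 18.9% of expressed symbols had. The highest of them was Ptch1, a receptor and target of hedgehog signals, at 167 ± 9.76 CPM. The part of these cells in the spread of Amh was not tested, and in bulk RNA fewer cells of a type and less RNA per cell cannot be told apart.

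**Figure D3:**
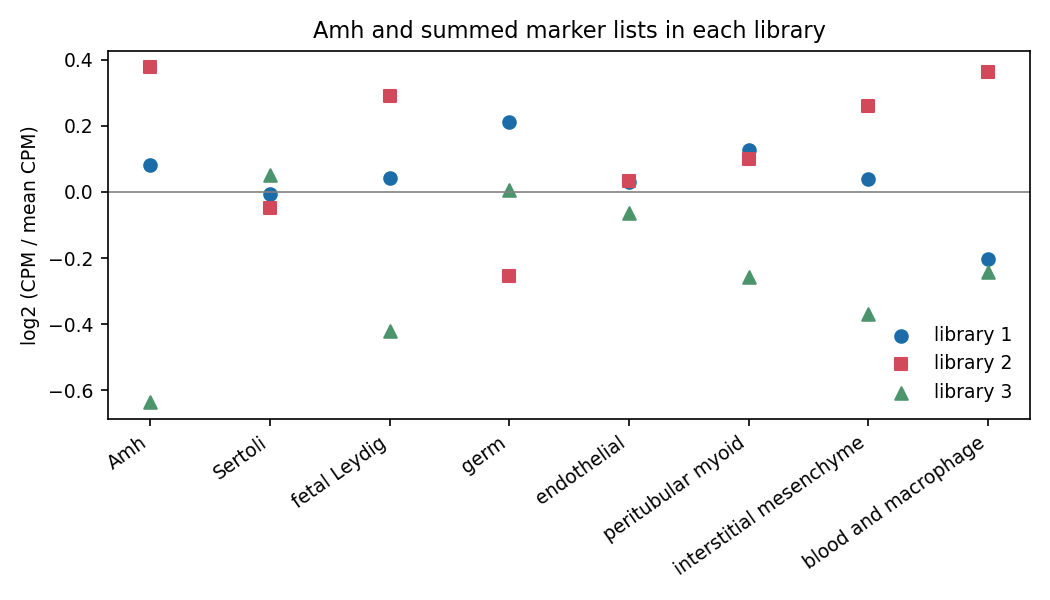
Amh and the summed CPM of each marker list, as log2 of the level in a library over the mean of the 3 libraries, with 1 point per library. Amh and the fetal Leydig, interstitial mesenchyme, blood and endothelial sums are highest in library 2 and lowest in library 3. The Sertoli sum lies between 9728 and 10422 CPM. Lists whose sum fell under 20 CPM in a library are left out.

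Other cell types had low sums. Those of the endothelial, granulosa and blood lists were also highest in library 2 and lowest in library 3. Those of the germ cell, myoid and mesonephric lists were not. Among expressed markers, 0 of 3 endothelial, 1 of 3 granulosa and 2 of 3 blood markers had that order, against 18.9% of expressed symbols. The endothelial sum was 32.8, 33.0 and 30.8 CPM in libraries 1, 2 and 3. Hbb-b1, the highest blood marker, was lowest in library 1. Germ cell markers (8 of 10 expressed, led by Tdrd9 at 13.9 CPM) summed to 57.4 to 79.4 CPM and were lowest in library 2. Endothelial markers (3 of 7, led by Pecam1) summed to 30.8 to 33.0 CPM, peritubular myoid markers (3 of the 4 matched, led by Tagln) to 25.3 to 33.1 CPM, and blood and macrophage markers (3 of the 6 matched, led by Hbb-b1) to 23.3 to 35.5 CPM. Granulosa markers (3 of 7, led by Esr2) summed to 7.51 to 10.0 CPM and mesonephric epithelium markers (1 of 5, led by Pax8) to 2.41 to 3.34 CPM. No marker was at 0 in all 3 libraries. Of the genes on either side of Amh in RefSeq, Sf3a2 stood at 98.5, 110 and 101 CPM and Jsrp1 at 18.1, 19.1 and 13.6 CPM, the second with the order of Amh and a narrower spread.

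Of the transcription factors known to act at the Amh gene, 9 of 9 were expressed, against 47.1% of all symbols. Gata4, a zinc finger factor, stood at 744 ± 17.7 CPM, Nr5a1 at 511 ± 26.2 CPM and Wt1, another zinc finger factor, at 393 ± 9.33 CPM. Sox9, a factor needed for testis formation that binds the Amh promoter, stood at 278, 283 and 217 CPM in libraries 1, 2 and 3, a mean of 259 ± 36.9 CPM. It was lowest in library 3, as Amh was, but its ratio of highest to lowest was 1.30 against 2.02 for Amh. The related factors Sox8 (229 ± 13.7 CPM) and Sox10 (51.9 ± 3.95 CPM) were expressed, as were Dmrt1 (127 ± 0.9002 CPM), the GATA partner Zfpm2 (64.7 ± 1.496 CPM) and Nr0b1, a repressor of NR5A1 (9.85 ± 1.497 CPM). The order of Amh was found for 3 of the 9, Sox9, Sox8 and Nr0b1, against 18.9% of expressed symbols. The ratio of highest to lowest was 1.12 for Sox8 and 1.33 for Nr0b1. Of these 9 genes, 6 are also in the Sertoli marker list.

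Amhr2, the receptor of the hormone, was expressed in the same 3 libraries. It stood at 239, 246 and 263 CPM in libraries 1, 2 and 3, a mean of 249 ± 12.4 CPM. The libraries lay close together, and Amhr2 was highest in library 3, where Amh was lowest. On the deposited scale, squared, it stood at 5.13, 5.28 and 5.66, a mean of 5.36 ± 0.272, and its rank was 809, 771 and 699, or 754 by the mean. The CV of Amhr2 was 4.97%, beside a median of 5.50% among the 977 expressed symbols within 1.5 times its level.

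Receptor and SMAD genes of the AMH signal beyond Amhr2, inhibitory SMADs included, were all expressed, 9 of 9, against 47.1% of all symbols. Among type I receptors Bmpr1a stood at 191 ± 17.8 CPM, Acvr1 at 35.5 ± 2.16 CPM and Bmpr1b at 3.65 ± 0.144 CPM. Of the SMADs that these receptors phosphorylate, Smad5 stood at 138 ± 6.65 CPM, Smad1 at 17.4 ± 1.07 CPM and Smad9 at 3.55 ± 0.250 CPM. The shared partner Smad4 stood at 129 ± 4.75 CPM. Smad7, an inhibitory SMAD, was the highest of the list at 241 ± 9.54 CPM. Smad6, the other inhibitory SMAD and a target of BMP-class signals, stood at 28.5, 35.4 and 18.4 CPM in libraries 1, 2 and 3. Of the 9 genes, 2 (Smad5 and Smad6) had the order of Amh, against 18.9% of expressed symbols. The ratio of highest to lowest was 1.92 for Smad6 and 1.09 for Smad5.

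The inhibin alpha subunit and the beta B subunit both had many reads. Inhbb stood at 639, 720 and 663 CPM in libraries 1, 2 and 3, a mean of 674 ± 41.8 CPM, and was highest in library 2 and lowest in library 1. On the deposited scale, squared, Inhbb stood at 13.7, 15.47 and 14.2, a mean of 14.5 ± 0.903, with ranks of 143, 109 and 139, or 127 by the mean. Inha stood at 476, 517 and 433 CPM, a mean of 475 ± 41.8 CPM. It was highest in library 2 and lowest in library 3, the order of Amh, with a ratio of highest to lowest of 1.19. The squared values of Inha were 10.2, 11.1 and 9.32, a mean of 10.2 ± 0.893, with ranks of 251, 210 and 306, or 259 by the mean. The CV of Inhbb was 6.20%, beside a median of 6.39% among the 231 expressed symbols within 1.5 times its level. That of Inha was 8.79%, beside a median of 6.02% among 399 such symbols, of which 88 had a CV at least as large.

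Inhba, the beta A subunit, had few reads beside Inhbb. It stood at 3.75, 4.82 and 2.73 CPM in libraries 1, 2 and 3, a mean of 3.76 ± 1.05 CPM, from 179, 270 and 141 reads. All 3 values lay above the 1 CPM of the rule, and under 5 CPM. The order over libraries was that of Amh, with a ratio of highest to lowest of 1.77. Squared deposited values of Inhba were 0.0804, 0.104 and 0.0586, a mean of 0.0808 ± 0.0225, with ranks of 11448, 11112 and 11771, or 11445 by the mean. Its CV was 27.8%, of which counting error would give 7.15%, and 17.7% without library 3. The order of Inhba was also that of the fetal Leydig markers given above, whose part in it was not tested. The subunits Inhbc and Inhbe, known mainly from liver, had at most 2.28 reads in a library.

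**Figure D4:**
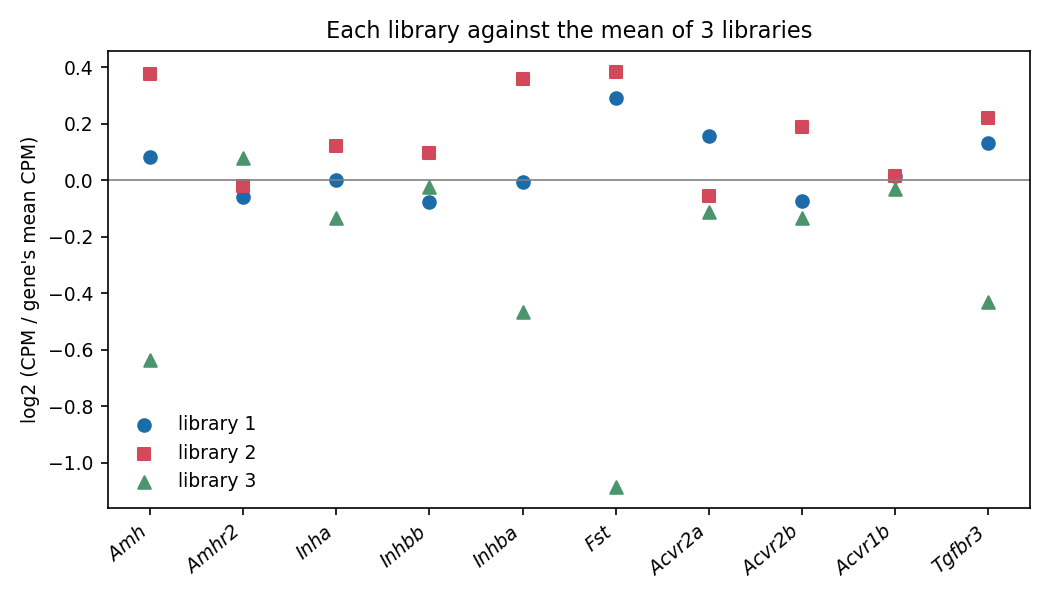
Log2 of each gene's CPM in a library over its mean CPM of the 3 libraries, with 1 point per library. Library 3 is the lowest for Amh, Inha, Inhba, Fst, Acvr2a, Acvr2b, Acvr1b and Tgfbr3, by little for Acvr1b and by most for Fst, which has 5 reads there; it is the highest for Amhr2.

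Fst, which neutralises activin and is a marker of the fetal ovary, was near the limit of detection. It had 12, 15 and 5 reads in libraries 1, 2 and 3, or 0.251, 0.268 and 0.0967 CPM, a mean of 0.205 ± 0.0944 CPM. The exact Poisson 95% intervals, which cover counting error only, ran from 0.130 to 0.439 CPM in library 1, from 0.150 to 0.442 CPM in library 2 and from 0.0314 to 0.226 CPM in library 3. The interval of library 3 overlaps the other two, and a difference of Fst between these libraries was not tested. In squared deposited values Fst stood at 0.00539, 0.00575 and 0.00208, a mean of 0.00441 ± 0.00202, with ranks of 15340, 15376 and 16757, or 15766 by the mean. The related binding protein Fstl3 stood at 34.0 ± 3.28 CPM.

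The activin receptors were expressed, with Acvr1b the steadiest of all 10 genes. Acvr1b, the type I receptor, stood at 122.1, 122.3 and 118 CPM in libraries 1, 2 and 3, a mean of 121 ± 2.17 CPM. Its CV of 1.79% was close to the 1.27% of counting error, beside a median of 5.39% among the 2050 expressed symbols within 1.5 times its level. After squaring, the deposited values of Acvr1b were 2.62, 2.63 and 2.55, a mean of 2.60 ± 0.0443, with ranks of 1988, 1976 and 2064, or 2000 by the mean.

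Acvr2a, a type II receptor, stood at 46.5, 40.1 and 38.6 CPM in libraries 1, 2 and 3, a mean of 41.7 ± 4.19 CPM. It was highest in library 1, unlike the ligands. Its CV was 10.0%, beside a median of 5.91% among the 2941 expressed symbols within 1.5 times its level. Squared deposited values of Acvr2a were 0.997, 0.862 and 0.829, a mean of 0.896 ± 0.0889, with ranks of 5215, 5735 and 5889, or 5601 by the mean. Acvr2a was the one gene of the 10 whose expected counts were not whole numbers, so some of its reads were divided among genes by the authors' counting; the counts of the other 9 were whole in every library, as they were for 59.8% of expressed symbols. In RefSeq its span overlaps that of Orc4, a subunit of the replication origin complex, at 51.3, 44.1 and 45.8 CPM.

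Acvr2b, the other type II receptor, stood at 10.1, 12.1 and 9.69 CPM, a mean of 10.6 ± 1.30 CPM, highest in library 2. The squared values of Acvr2b were 0.217, 0.260 and 0.208, a mean of 0.229 ± 0.0280, with ranks of 9787, 9460 and 9790, or 9696 by the mean. Its CV was 12.2%, of which counting error would give 4.26%, beside a median of 8.08% among the 1691 expressed symbols within 1.5 times its level. The co-receptor Tgfbr3 stood at 11.5, 12.2 and 7.77 CPM, a mean of 10.5 ± 2.36 CPM. Libraries 1 and 2 lay together and library 3 was lower, with a ratio of highest to lowest of 1.57. After squaring, Tgfbr3 stood at 0.246, 0.262 and 0.167, a mean of 0.225 ± 0.0506, with ranks of 9556, 9447 and 10207, or 9730 by the mean. The CV of Tgfbr3 was 22.6%, and 4.34% without library 3.

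Other genes of the activin pathway were expressed in 9 of 13 cases, against 47.1% of all symbols. The type I receptor Tgfbr1 was the highest of the list at 129 ± 12.4 CPM, and Acvr1c stood at 1.98 ± 0.220 CPM. The SMADs of activin signals were steady over the pools, with Smad2 at 119 ± 0.880 CPM and Smad3 at 102 ± 2.42 CPM. Zfyve9, the anchor protein that presents these SMADs to the receptor, stood at 29.7 ± 1.01 CPM. Among genes that restrain the pathway Pmepa1 stood at 38.6 ± 2.29 CPM and the decoy receptor Bambi at 35.6 ± 3.36 CPM. Igsf1 stood at 2.10 ± 0.136 CPM. Inhbc, Inhbe, the SMAD partner Foxh1 and the nodal co-receptor Tdgf1 were not expressed, with means of 0.0392 CPM or less.

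AMH and the inhibin subunits are made as precursors that convertases cut. All 5 convertase genes were expressed, against 47.1% of all symbols. Furin stood at 125 ± 15.6 CPM, Pcsk5 at 112 ± 4.42 CPM and Pcsk6 at 68.4 ± 3.76 CPM. Pcsk7 stood at 36.6 ± 1.94 CPM and Pcsk4 at 1.65 ± 0.397 CPM. Furin stood at 120, 143 and 112 CPM in libraries 1, 2 and 3. Of the 5, 3 (Furin, Pcsk4 and Pcsk6) had the order of Amh, against 18.9% of expressed symbols. Their ratios of highest to lowest were 1.27, 1.56 and 1.11.

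Across the set, 6 of the 9 expressed genes of the hormone and receptor set were highest in library 2 and lowest in library 3, against 18.9% of all expressed symbols. This order was taken from Amh, so the place of Amh among the 6 was fixed in advance. The 6 were Amh, Inha, Inhba, Acvr2b, Acvr1b and Tgfbr3, with ratios of highest to lowest from 1.03 for Acvr1b to 2.02 for Amh. Libraries 1 and 2 lay close for Acvr1b (122.1 and 122.3 CPM) and Tgfbr3 (11.5 and 12.2 CPM). So did libraries 1 and 3 for Acvr2b (10.1 and 9.69 CPM). Counting error was 1.27% for Acvr1b, 4.30% for Tgfbr3 and 4.26% for Acvr2b, so the full order of these genes is not settled. A ratio of 1.5 or more was found for 3 of the 9, Amh, Inhba and Tgfbr3, against 5.68% of all expressed symbols, whatever their level. Among expressed symbols within 1.5 times the gene's level, the median CV was 6.18% for Amh, 11.3% for Inhba and 8.14% for Tgfbr3. With the gene itself included, 1 of 23, 78 of 1148 and 109 of 1691 such symbols had a CV at least as large. Library 2, the highest for these genes, also held the most expected counts, and library 1 the fewest; the part of depth was not tested. These counts describe 3 pools and were not tested. The median of mean levels over the 10 genes was 81.3 CPM, beside 0.712 CPM over all symbols and 32.6 CPM over expressed symbols.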

How the data were processed

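RNA was measured in 3 pools of E15.5 preSertoli cells. Per the submitters' processing notes, the authors used CASAVA 1.8.2, Bowtie 0.12.7 and RSEM 1.2.0 with mm9; the gene annotation is not given in the sources used here. The deposited values are square roots of scaled expected counts, per the file headers; from the values, the scale of a library is its 75th percentile, taken over genes with any reads. RSEM gives counts to the hundredth, and squared values fell on such steps (tolerance 0.05 of a step), which gave back the expected counts (47766422, 56007688 and 51725096 per library) and, from them, CPM. Of 28427 rows, 426 repeated another exactly; the row of highest mean was kept for each of 27697 symbols. The recovery of counts, the size factors and the distance between profiles were tested on simulated data, and the choice of row was not. RNA-seq has 1 group, so no differential test was made, and the spread between pools may be technical. Named were all 10 genes, 4 pathway lists, the 8 genes nearest to and 5 farthest from Amh, and the highest gene of each marker list; 1 gene planned for a pathway list is not reported here and not counted. The genes and lists were chosen with earlier results of these data known. Computation used Python 3.11.15, NumPy 2.4.6 and pandas 2.3.3. The alternatives were other library scalings, other floors, another pseudocount, other handling of repeated rows and leaving out each library. DNase-seq and H3K27ac lists were not used here, because no mm9 annotation was at hand to place the genes.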

Additional observations from a re-analysis of the deposited data

How the results depend on the processing

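Levels, ranks and the CV of the 10 genes kept within their spread under median-of-ratios size factors, the authors' scaling and summed repeated rows. They also did with a total over 1 row per symbol (added after seeing the data). Median-of-ratios size factors and the authors' scaling moved the median of expressed symbols by at most 0.00749 (log2). Under both, 7 of the 10 genes, Amh and Fst included, kept the order of libraries 2, 1 and 3. Shifts this small could change only a close order, and that of Fst rests on 12, 15 and 5 reads. The 18.9% given above is over expressed symbols, which leave out Fst, so it does not stand beside these 7. Leaving out each library in turn gave a mean for Amh of 1743 to 2413 CPM and a CV of 14.5% to 47.7%. With a library left out, 18 of the 30 CVs moved beyond the tolerance set, some down and some up. Among the falls, without library 3 the CV of Fst was 4.52%, of Amhr2 1.99%, of Inha 5.84% and of Acvr1b 0.101%. Without library 2 that of Inhbb was 2.55% and of Acvr2b 3.04%, and without library 1 that of Acvr2a was 2.80%. Among the rises, without library 1 the CV of Fst was 66.4%, of Inhba 39.3%, of Tgfbr3 31.2% and of Inha 12.4%. Without library 2 that of Fst was 62.8% and of Amhr2 6.77%, and without library 3 that of Inhbb was 8.44%. Divided by the Sertoli marker sum, chosen after the data were seen, Amh had a CV of 36.04%, or 35.2% with Clu left out of the sum. The share of symbols with a CV at least that of Amh was 0.530% at a floor of 10 CPM and 1.79% (1 of 56, Amh itself) at 1000 CPM. Floors of 0.5 and 5 CPM called 9 and 8 of the 10 genes, and all 10 had reads in every library. The shares of all symbols at these floors are not given here. All 8 genes nearest to Amh remained under median-of-ratios size factors and with a pseudocount of 5 CPM. Levels per length and peaks at start sites were not run, for lack of transcript lengths and of an mm9 annotation. No paired analysis was possible because the RNA-seq has a single group. Depth limits Fst, with 5 to 15 reads per library, and Inhba, with 141 to 270.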

Other observations

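Besides Amh, 5 symbols at a mean of 100 CPM or more had a CV at least as large, and they differed in their order over the libraries. Jund, a subunit of the AP-1 transcription factor, stood at 154, 247 and 64.1 CPM in libraries 1, 2 and 3. Col1a1, a fibrillar collagen of connective tissue, stood at 112, 152 and 67.3 CPM, and 6430527G18Rik at 146, 183 and 80.7 CPM. H2afx, the histone variant marked at DNA breaks, stood at 116, 169 and 85.5 CPM. These 4 had the order of Amh. Hspa1a, an inducible heat shock chaperone, did not, at 186, 138 and 84.4 CPM, although library 3 was the lowest for it as well.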
